A study of Mus musculus with 2 samples.

Results

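The genes described here are 8 genes for proteins that intestinal goblet cells secrete or use to handle their granules: Agr2, Zg16, Fcgbp, Retnlb, Tff3, Spink4, Sytl2 and Guca2a. They were chosen by name, and each had 1 transcript row in the deposited table, so they are 8 of 17216 genes, or 8 of the 10879 genes that averaged 20 or more normalized reads in the 2 libraries. All 8 passed that filter. Fcgbp, Zg16 and Sytl2 lie on mouse chromosome 7, Spink4 and Guca2a on 4, Agr2 on 12, Retnlb on 16 and Tff3 on 17. The data are bulk RNA-seq of isolated small intestine crypts of C57BL/6 mice, with 1 wild-type library (genotype AhCre) and 1 Eed knockout library (genotype AhCreEedfl/fl). Both groups carried AhCre, a Cre recombinase under a promoter that responds to the aryl hydrocarbon receptor, and both received 3 injections of β-naphthoflavone, which switches that promoter on, 15 days before crypts were taken. The wild-type control therefore shares the Cre and the ligand, and differs in having no floxed Eed. The labels used here state no age, sex or pooling of animals. Eed belongs to the Polycomb complex PRC2, a histone methyltransferase that keeps genes silent.

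Goblet cells store mucin and companion proteins in large apical granules and release them to build the mucus layer. Mucin is folded in the endoplasmic reticulum with the help of disulfide isomerases such as Agr2, packed with Fcgbp, Zg16 and Tff3, and released through granule docking by Rab27 proteins and their effectors, to which Sytl2 belongs. Guca2a is a peptide hormone that acts on a receptor of the neighbouring epithelium. Retnlb and Spink4 are small secreted proteins, the former tied to mucosal defence and the latter of the Kazal family of protease inhibitors.

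The libraries held 6970733 and 5918162 reads. With 1 library per genotype there is no replicate spread and no test between genotypes. A gene is called higher or lower here when its log2 ratio, with 1 added to each normalized value, reaches 1 in size and it passes the filter on the mean. Ratios of reads are given after the authors' scaling, with a 95% exact interval that covers counting error only. Eed had 588 wild-type and 183 knockout reads. Defining epithelial markers were abundant in both libraries, with 2759 and 2566 reads for Epcam, and none of 11 epithelial markers was called. Of the 11, 8 had at least 1 read per base of transcript in either library. Among all 341 genes that dense, 0.587% were called higher and 2.35% lower, so few calls would be seen among such markers in any case. In bulk tissue, fewer cells of a type and less RNA per cell cannot be told apart.

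Of the 8 goblet cell genes, 2 were called higher in the Eed knockout library and none lower. Across all 10879 genes, 11.2% were called higher and 3.58% lower. The 2 were Retnlb and Sytl2. Retnlb, under 20 in the wild type, passed the filter through the knockout library, so its call followed from the filter. Agr2, Zg16, Fcgbp, Tff3, Spink4 and Guca2a had ratios between 0.968 and 1.44. Log2 ratios ran from -0.05 to 3.26, 7 of 8 lay above 0, and their median was 0.29. Over all 10879 genes the median was -0.11, and 40.2% lay above 0. Another scaling shifts every gene alike: under 4 others 8 of 8 lay above 0, Zg16 included, beside 48.3% to 56.4% of all genes. Together the 8 genes took 0.251% of the wild-type reads summed over all rows and 0.321% of the knockout reads. Fcgbp alone supplied 74.3% and 69.9% of the reads of the 8 genes. An exact binomial test on the reads with Benjamini-Hochberg adjustment, a comparison of 2 libraries rather than genotypes, put 7 of the 8 genes higher, all but Zg16, and none lower, beside 22.9% of all genes higher and 37.3% lower. In the authors' deposited table none of the 8 genes was called at an adjusted p of 0.05. That comparison of 1 library per genotype did not call Eed, the targeted gene, either.

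**Figure D1:**
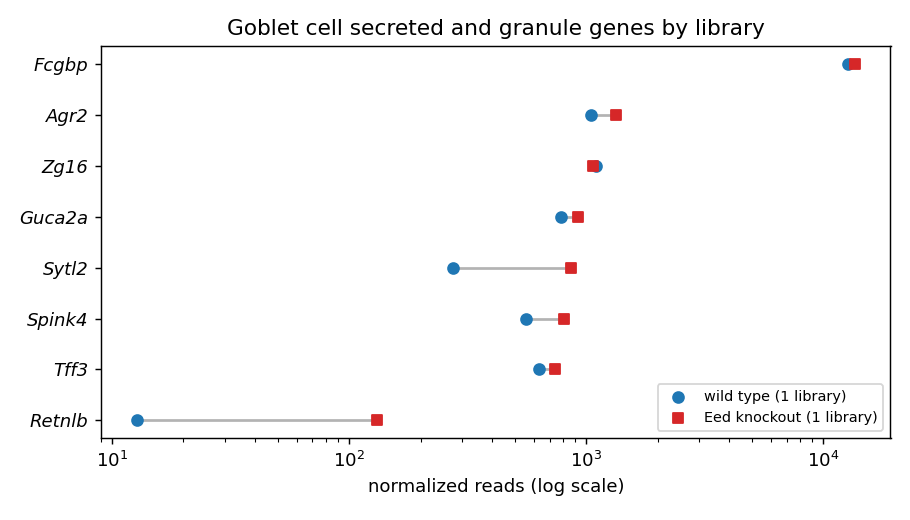
Normalized reads (horizontal axis, log scale) of the 8 genes in the wild-type library (circles) and the Eed knockout library (squares), 1 library each and no error bars. The gap is wide for Retnlb and Sytl2 and small for the other genes, and Zg16 is the 1 gene whose knockout value lies below its wild-type value, an order that turns under 4 other scalings, which shift all genes alike.

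Retnlb, which encodes resistin-like molecule beta, a cysteine-rich goblet cell protein induced by type 2 cytokines, differed most. It had 12 wild-type and 127 knockout reads, or 12.7 and 131 normalized reads as deposited. The level was near the limit of detection in the wild type and well above it in the knockout. The knockout value was 11-fold higher (95% counting interval 6.10 to 21.9), and its log2 ratio stood at place 271 from the top among the 10879 genes. The authors' comparison of the same 2 libraries did not call Retnlb at 0.05, and it did not call Eed, the targeted gene, either. The wild-type value was under 20, so Retnlb passed the filter through the knockout library and its call followed from the filter. A stretch of its coding sequence is shown to let the overlap with its family be seen. The capitals mark the longest run, 26 bases, that it shares exactly with another family member, Retnlg (bases 208 to 233 of 318 coding bases, counted from the start codon, mouse chromosome 16, GENCODE vM21).
Retnlb, coding bases 148 to 293: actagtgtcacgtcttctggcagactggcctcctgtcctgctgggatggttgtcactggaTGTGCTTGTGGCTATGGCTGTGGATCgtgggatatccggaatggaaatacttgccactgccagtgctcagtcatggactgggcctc

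The remaining family members gave almost no reads. Retnla had 1 wild-type and 0 knockout reads, and Retnlg had 0 and 2, so neither could be placed. Of the 4 family members listed, 3 had a row and Retnlb alone passed the filter. Apart from Retnlg, no other GENCODE transcript shared a run of 24 or more bases with Retnlb on either strand.

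Retnlb is known to be induced by interleukins 4 and 13, and that pathway is described from a list of 15 genes. None of its 5 members above the filter was called, and 4 of the 5 lay below 0, and the median log2 ratio was -0.36. The receptor chain Il4ra had 1450 wild-type and 1130 knockout reads, a log2 ratio of -0.30. Retnlb is also a marker of colon epithelium, where it is more abundant than in small intestine. Of 10 colon markers above the filter, Retnlb included, 3 were called higher and none lower, and the median was -0.19. Across all 10879 genes 11.2% were called higher and 3.58% lower. Retnlb and Hoxb13 had wild-type values under 20 and passed the filter through the knockout library, so their calls followed from the filter. The other two were Hoxb13, with 0 wild-type reads and 803 knockout reads, at least 279-fold higher against a floor of 3 reads in the wild-type library, and Ces1g, 2.19-fold higher (1.73 to 2.8). Their part in the Retnlb result was not tested.

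Sytl2 encodes synaptotagmin-like protein 2, an effector that ties Rab27-bearing granules to the plasma membrane. It had 278 wild-type reads and 847 knockout reads, or 273 and 866 normalized reads as deposited. The knockout level was the higher by a margin far outside counting error. The ratio was 3.18-fold (2.77 to 3.65), at place 732 among the 10879 genes. In the authors' deposited table its adjusted p is 0.327. The row's accession had no match in the length table. Set on the 5 protein-coding Sytl2 transcripts of GENCODE vM21, of 1490 to 3838 bases, its reads come to 0.0724 to 0.187 per base (wild type) and 0.221 to 0.568 per base (knockout).

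Sytl2 lies on chromosome 7 close to Eed itself, the targeted gene. In the gene order of the RefSeq table it is the 2nd gene above the filter after Eed. Of the other 19 genes among the 10 on each side of Eed, 4 were called higher, none was called lower, and the median was -0.20. Across all genes above the filter 11.2% were called higher and 3.58% lower. Next to Sytl2, E230029C05Rik had 8 and 35 reads, and Crebzf had 146 and 115. E230029C05Rik and Me3 (17 and 87 reads), both under 20 in the wild type, passed the filter through the knockout library. Crebzf was not called. Any part of the position beside Eed in the Sytl2 result was not tested.

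**Figure D2:**
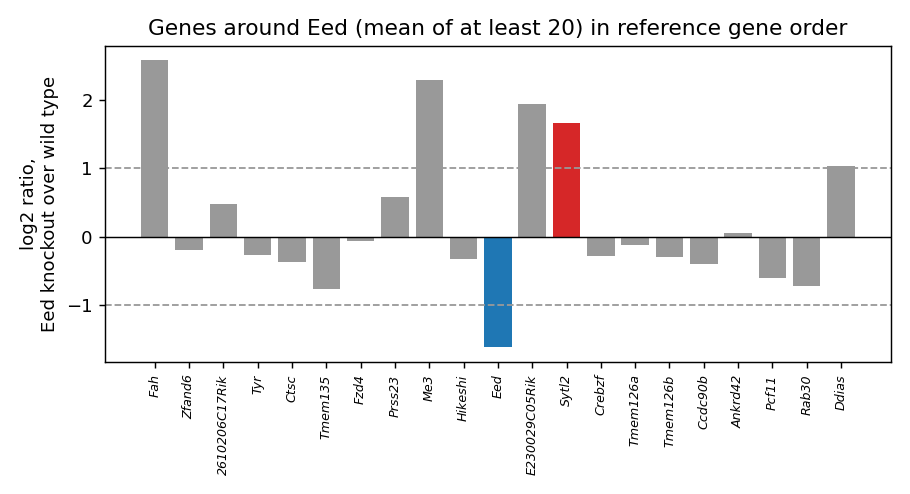
Log2 ratio of the knockout over the wild-type library (vertical axis) for the 10 genes above the filter on each side of Eed, in reference gene order (horizontal axis, places and not distances), with Eed and Sytl2 coloured and the 2-fold lines dashed. Sytl2 stands at 1.66 beside Eed at -1.61, and Fah, Me3, E230029C05Rik and Ddias also reach the upper line.

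The machinery in which Sytl2 works was listed as 20 genes. Of these genes for Rab27 proteins, their effectors and granule exocytosis, 15 passed the filter, and 8 of these, Sytl2 included, were called higher and none lower. Across all 10879 genes 11.2% were called higher and 3.58% lower. The median log2 ratio of the 15 was 1.08, beside -0.11 for all genes. Of the 20 listed, 3 also stand on another list used here, so counts of different lists are not wholly separate. Myrip, a Rab27 effector that binds myosin, was 4.20-fold higher (3.32 to 5.37). Rab27b had 24 and 75 reads and was 3.26-fold higher (2.03 to 5.39), Rab27a, with 412 and 868 reads, was 2.20-fold higher (1.95 to 2.47), and Sytl1 was 2.44-fold higher (2.09 to 2.85). Within the same list the fusion proteins Vamp8 (log2 ratio -0.26), Stxbp2 (-0.24) and Stx3 (-0.92) were not called. These 3 serve exocytosis in many epithelial cells, and they were picked out on sight of their values. Sytl3 had 9 and 8 reads, so not every synaptotagmin-like gene had a measurable level.

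Agr2, the disulfide isomerase that mouse goblet cells need for making Muc2, had 1067 wild-type reads and 1303 knockout reads. The knockout level was higher by more than counting error and by less than 2-fold. The ratio was 1.27 (1.17 to 1.38). Agr3, its closest relative, went the other way, with 39 and 15 reads, 2.49-fold lower (1.34 to 4.87). Of 23 disulfide isomerases and oxidases of the secretory pathway, all above the filter, 3 were called higher and 1 lower, around a median of 0.17 on the log2 scale. The higher ones were Qsox1, a secreted thiol oxidase, at 3.90-fold (3.12 to 4.91), Pdia5 at 2.66-fold (2.39 to 2.96) and Dnajc10 at 2.04-fold (1.91 to 2.18). The share called higher, 3 of 23, is near that of all genes.

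Fcgbp, a large mucus protein that is secreted with Muc2 and joins the mucus matrix, had 12987 wild-type reads and 13273 knockout reads. The levels were close, with a ratio of 1.07 (1.04 to 1.09). Its transcript shares an exact run of 206 bases with 9530053A07Rik, so a part of its reads could have been split between them. That gene had 27 reads in each library, which cannot settle this, as how reads were counted is not stated. Zg16, a lectin-like protein of the granule that binds bacterial cell walls, had 1121 and 1041 reads. Its ratio was 0.968 (0.889 to 1.05), an interval that includes 1. Of the 6 genes listed for the mucus matrix and its cross-linking, which include Fcgbp and Zg16, 5 passed the filter and none was called in either direction. Muc2, the gel-forming mucin, had 9411 and 10766 reads, a log2 ratio of 0.25, and Clca1, listed under its older symbol Clca3, had 3960 and 3743, a log2 ratio of -0.02.

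Tff3, a trefoil peptide of mucosal repair, had 645 wild-type reads and 721 knockout reads. The ratio was 1.17 (1.05 to 1.3). Tff2, the other trefoil gene with a row, had 325 and 384 reads, so neither was called. Spink4 had 568 wild-type reads and 787 knockout reads. Among the 6 of the 8 genes that were not called, its ratio of 1.44 (1.29 to 1.61) was the highest. At 1.98 reads per base in the knockout it was also the densest. With an assumed ceiling of 2 reads per base corrected for, its log2 ratio of 0.53 became 1.97, past the 2-fold line. That corrected value depends on the ceiling chosen, because 1.98 lies just under it. B4galnt2 exceeded that ceiling, at 2.81 in the wild type, and no other ceiling was tried. Of 13 Kazal-type inhibitors, 5 had a row and 2 passed the filter. The other one, Spink1 (listed as Spink3), had 534 and 433 reads, a log2 ratio of -0.24.

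Guca2a encodes guanylin, the ligand of the guanylate cyclase receptor Gucy2c, which drives chloride and bicarbonate secretion through Prkg2 and Cftr. It had 797 wild-type reads and 900 knockout reads, a ratio of 1.18 (1.07 to 1.3). The rest of its pathway lay on the other side of 0. Of 9 pathway genes above the filter, Guca2a was the 1 with a log2 ratio above 0, none was called higher and 1 was called lower, and the median was -0.60. The kinase gene Prkg2 had 2403 and 1077 reads, 2.14-fold lower (1.99 to 2.30). Guca2b, the sister peptide uroguanylin, had 954 and 769 reads (log2 ratio -0.25), and Gucy2c had 146 and 103 (log2 ratio -0.44). Several genes of this list are enterocyte genes. All 15 enterocyte markers lay below 0, at a median of -0.32, and 3 were called lower and none higher. Across all 10879 genes 3.58% were called lower and 11.2% higher. The 3 called were among the 4 markers with under 1 read per base, and the other 11 were denser. The part of enterocyte genes in the result was not tested.

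**Figure D3:**
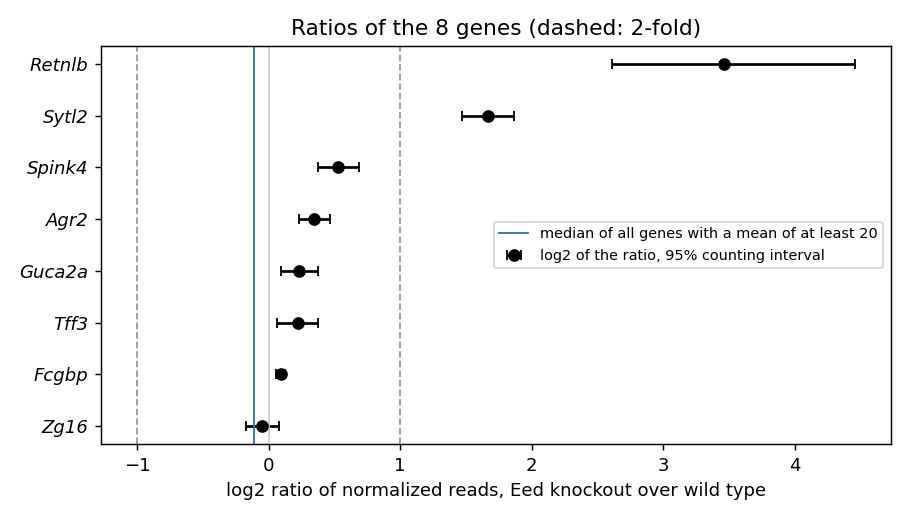
Log2 of the ratio of scaled reads, knockout over wild type (horizontal axis), for each of the 8 genes, with bars for the 95% counting interval, dashed lines at 2-fold and a line at the median of all genes with a mean of at least 20. The intervals of Retnlb (3.46) and Sytl2 (1.67) lie wholly above 2-fold, and that of Zg16 crosses 0.

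The promoters of 3 of the genes, Agr2, Fcgbp and Guca2a, were matched in the RefSeq table (build GRCm38.p6, 250 bases before to 50 after the start). They are shown because they were the ones matched. No promoter was matched for Retnlb and Sytl2, which were called higher, or for Zg16, Tff3 and Spink4. Motifs were searched on both strands. The E-box of basic helix-loop-helix factors was searched as CAGCTG. The forkhead motif was TGTTTAC, as FOXA factors bind. For GATA factors the letters were GATAAG. For caudal factors they were TTTAT. The TATA box was searched as TATAAA, and it can overlap the caudal motif read on the other strand. Capitals mark the matches, which are descriptions and not binding sites.
Agr2, chr12:35992675-35992974, plus strand: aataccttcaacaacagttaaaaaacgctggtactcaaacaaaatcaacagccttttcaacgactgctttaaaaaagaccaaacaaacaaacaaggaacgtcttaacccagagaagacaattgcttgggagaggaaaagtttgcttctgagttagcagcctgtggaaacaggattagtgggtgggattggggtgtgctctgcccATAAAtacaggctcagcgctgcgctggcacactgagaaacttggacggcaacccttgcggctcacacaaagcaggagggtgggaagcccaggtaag
Fcgbp, chr7:28070986-28071285, plus strand: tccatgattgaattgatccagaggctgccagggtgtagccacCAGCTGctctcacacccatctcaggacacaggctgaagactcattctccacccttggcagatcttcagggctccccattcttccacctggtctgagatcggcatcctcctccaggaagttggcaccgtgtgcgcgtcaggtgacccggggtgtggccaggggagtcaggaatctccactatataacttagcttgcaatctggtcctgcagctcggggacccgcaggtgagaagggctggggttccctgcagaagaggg
Guca2a, chr4:119637482-119637781, plus strand: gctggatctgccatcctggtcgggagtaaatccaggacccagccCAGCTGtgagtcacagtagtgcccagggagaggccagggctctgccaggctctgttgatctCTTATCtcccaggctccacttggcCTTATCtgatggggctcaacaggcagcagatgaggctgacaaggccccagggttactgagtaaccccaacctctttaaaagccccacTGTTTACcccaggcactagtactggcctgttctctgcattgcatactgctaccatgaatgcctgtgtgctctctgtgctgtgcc

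The Guca2a window held an E-box, 2 GATA matches and a forkhead match 34 bases before the start. The Fcgbp window held an E-box and the Agr2 window a caudal match, and none of the 3 held a TATA box by these letters. Among all 32851 promoters of the table, the E-box was found in 16.3%, the GATA motif in 7.443%, the forkhead motif in 3.65%, the caudal motif in 40.01% and the TATA box in 13.62%, which makes the forkhead motif the scarcest of the 5. Polycomb complexes in mammals are known to gather at CpG-rich promoters. The Agr2 and Fcgbp windows each held 7 CpG, which is the median of all promoters, and the Guca2a window held 1, with 5.43% of promoters holding fewer.

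Regulators of the goblet lineage were listed beside these products. Of 12 goblet cell transcription factors above the filter, 6 were called higher and none lower, and the median log2 ratio was 1.10. Foxa2, a forkhead factor of endoderm, was 3.60-fold higher (2.97 to 4.39), and Creb3l1, Creb3l4 and Bhlha15, factors of secretory cells, were 3.20-fold (2.94 to 3.49), 3.19-fold (2.77 to 3.67) and 3.11-fold (2.81 to 3.43) higher. Atoh1 and Spdef, which specify and mature the lineage, had 478 and 586 wild-type reads and 1096 and 1388 knockout reads, 2.39-fold and 2.47-fold higher. Of 29 other goblet cell genes above the filter, 16 were called higher and none lower, with a median of 1.06. Of the 33 listed, 8 also stand on another list used here. Across all 10879 genes 11.2% were called higher and 3.58% lower. Ramp1, a receptor partner, was 4.59-fold higher (3.81 to 5.56), the calcium pump gene Atp2c2 3.64-fold (3.21 to 4.14), Lrrc26 3.27-fold (2.82 to 3.8) and the protease gene Bace2 3.19-fold (2.78 to 3.67). The list's genes nearest to the median of the 8 were Tff2 (log2 ratio 0.30), Muc2 (0.25) and S100a6 (0.46), a likeness that rests on 1 ratio between 2 libraries. The lists are read from the same 2 libraries and were drawn up with earlier results known, so they are not independent evidence. No test of the difference between the 8 genes and these lists was possible with 1 library per group. The lists also differ in read density. At least 1 read per base in either library was reached by 6 of the 8 genes, 2 of the 29 other goblet cell genes and 0 of the 12 transcription factors. The part of read density in the difference was not tested.

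**Figure D4:**
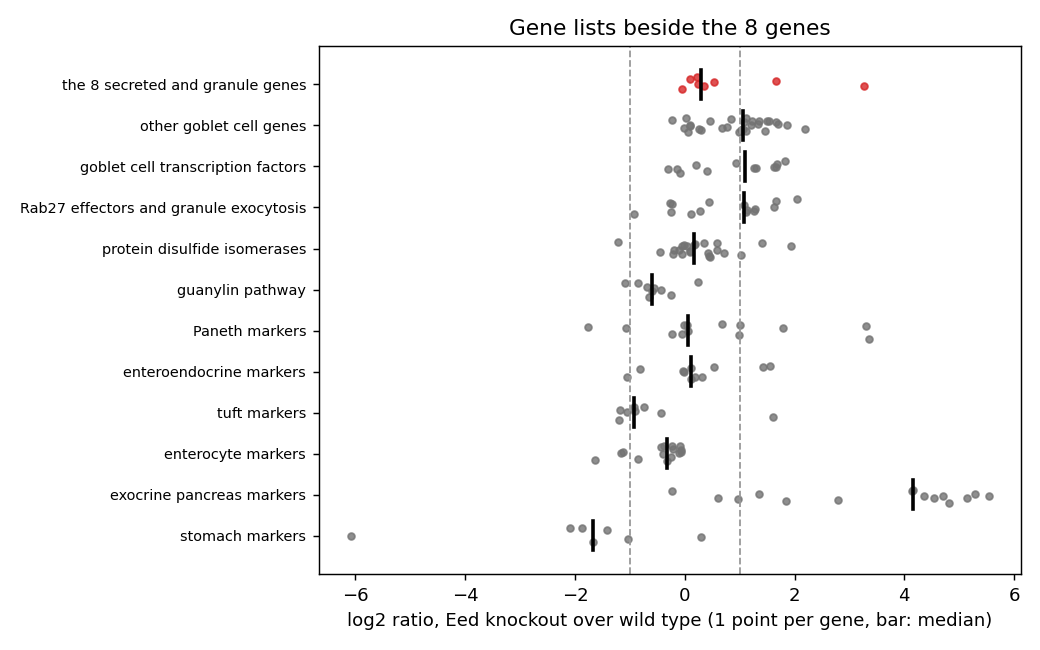
Log2 ratio of each gene with a mean of at least 20 (points) by gene list, with the list's median as a bar and dashed lines at 2-fold; vertical scatter within a list has no meaning. The 8 secreted and granule genes have a median of 0.29, the other goblet cell genes 1.06 and the goblet cell transcription factors 1.10. These lists differ in read density. At least 1 read per base in either library was reached by 6 of the 8 genes, 2 of the 29 other goblet cell genes and 0 of the 12 transcription factors.

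Levels of the genes can be compared per length. In the wild-type library Zg16 was highest with 1727 normalized reads per kilobase, followed by Fcgbp (1605), Spink4 (1401), Agr2 (1333), Guca2a (1314), Tff3 (1282) and Retnlb (16.9). In the knockout library the order was Spink4 (2024), Fcgbp (1709), Agr2 (1697), Zg16 (1671), Guca2a (1547), Tff3 (1493) and Retnlb (186). By Poisson intervals, which cover counting error only, the neighbours Zg16 and Fcgbp overlapped in the wild type, as did all neighbours from Spink4 to Tff3. In the knockout all neighbours from Fcgbp to Tff3 overlapped, and Spink4 and Retnlb stood apart from their neighbours. By normalized reads per kilobase Spink4 held place 1 among the 10741 genes with a length in the knockout library, Fcgbp place 5 and Agr2 place 6, and Zg16 held place 11 in the wild-type library.

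The 6 genes that were not called were therefore also among the most densely read transcripts of both libraries. Their reads came to between 1.31 and 1.98 per base of transcript, while Retnlb had 0.0172 and 0.182. Among the 10741 genes with a length, 1 exceeded 2 reads per base in either library, B4galnt2 at 2.81 in the wild type, which was picked out on sight of its value. Of the 341 genes with at least 1 read per base in either library, 0.587% were called higher and 2.35% lower. In the 136 genes with at least 1.3 reads per base the log2 ratios had an SD of 0.33 across genes. It was 1.08 in the 3672 genes with 0.05 to 0.2. In between, the SD was 0.65 at 0.2 to 0.5 reads per base, 0.52 at 0.5 to 1 and 0.51 at 1 to 1.3. From the range of 0.05 to 0.2 upward, the shares of genes called higher were 10.5%, 3.61%, 2.72%, 0.488% and 0.735%. The shares called lower were 3.32%, 3.27%, 3.57%, 2.93% and 1.47%. Among the other goblet cell genes, 16 of the 26 with under 1 read per base were called higher. Neither of the 2 above it was (Clca1 and Muc13), too few to show a pattern, and 1 more had no length. An assumed ceiling of 2 reads per base was corrected for as an alternative, and beside that of Spink4 the log2 ratio of Agr2 then went from 0.35 to 0.70 and that of Zg16 from -0.05 to -0.26. The sources used here do not say how duplicate reads were handled, and the part of read density in the ratios was not tested.

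**Figure D5:**
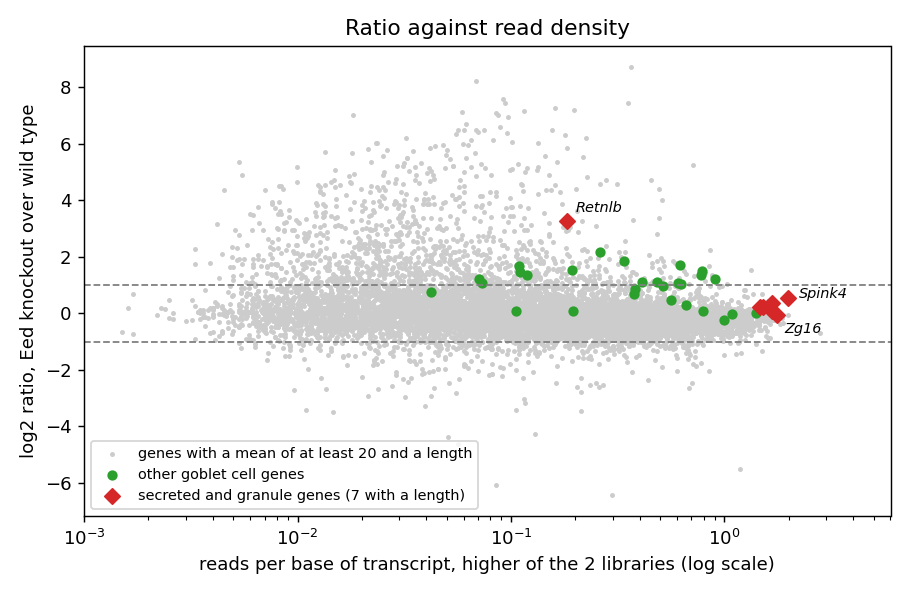
Log2 ratio, knockout over wild type (vertical axis), against reads per base of transcript in the library where they are higher (horizontal axis, log scale) for all genes with a mean of at least 20 and a length (small points), the other goblet cell genes (circles) and the 7 secreted and granule genes with a length (diamonds). Retnlb lies at 0.182 reads per base and a log2 ratio of 3.26, and the other 6 diamonds sit between 1.46 and 1.98 reads per base within 2-fold.

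Markers of other cells and tissues also differed between the libraries, and their counts stand beside 11.2% higher and 3.58% lower of all 10879 genes. Of 15 exocrine pancreas markers above the filter, 12 were called higher and none lower, with summed levels of 1520 and 4295 normalized reads (wild type first). None of that list was at 0 reads in either library, and 9 of the 15 had a wild-type value under 20. Prss2 was 92.2-fold higher (25.2 to 768), Cpb1 69.8-fold (19.0 to 583), Cel 58.1-fold (22.4 to 215) and Cela2a 36-fold (17.2 to 90.6). Zg16 is also known from pancreatic zymogen granules, and its own ratio was 0.968. Of 7 stomach markers above the filter, 6 were called lower and none higher, with summed levels of 3010 and 1058. Muc5ac was 84.6-fold lower (42.7 to 197), Gkn2 4.36-fold (3.32 to 5.81), Muc6 3.69-fold (3.18 to 4.31) and Gkn1 3.26-fold (2.49 to 4.31), while the trefoil gene Tff2 on this list had a log2 ratio of 0.30. Of 5 fibroblast and muscle markers above the filter, 4 were called higher and none lower, with summed levels of 286 and 796, and 3 of the 10 with a row were at 0 in the wild type. The 4 called were the collagen genes Col1a1 (1 and 155 reads), Col1a2 (0 and 124), Col3a1 (6 and 198) and Col6a1 (3 and 50), all under 20 in the wild type, so they passed the filter through the knockout library. The 5th, Vim, held most of the list's wild-type reads, with 265 and 210, a log2 ratio of -0.27, and was not called. Of 6 immune markers above the filter, 3 were called higher and none lower, Lyz2 (27 and 230 reads), Gata3 (3 and 48) and Csf1r (28 and 94), with summed levels of 344 and 716 and 1 of 16 at 0 in the wild type. Of these, Gata3 passed the filter through the knockout library. Their part in the Retnlb and Sytl2 results was not tested.

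The sister secretory lineages did not share 1 direction, and their counts stand beside the same 11.2% higher and 3.58% lower of all genes. Of 13 Paneth cell markers, 4 were called higher and 2 lower, with a median of 0.05. Mptx1 (38 and 393 reads) and Copz2 (35 and 347) were more than 10-fold higher, Reg3a (638 and 178) was lower, and Lyz1 had 1930 and 1910. Of 11 enteroendocrine markers above the filter, 2 were called higher, Sct and Pyy, and 1 lower, Neurog3, with a median of 0.12. Of 8 tuft cell markers above the filter, 1 was called higher, Ptgs1, and 3 lower, Il17rb, Ltc4s and Trpm5, with a median of -0.92.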

How the data were processed

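Bulk RNA-seq of 2 mouse crypt libraries was analysed, 1 per genotype. The submitters' processing notes name TopHat, DESeq and the build mm9. How reads were counted, and whether strand or duplicates were considered, is not stated in them. The authors deposited a normalized signal per transcript and library (reads divided by a size factor), its ratio and log2 ratio, and p-values. Within a tolerance of 1e-06, 100% of values were whole multiples of the library's lowest value, and no row was at 1 step in both libraries, so 1 read was inferred to have been added, and reads are the steps minus 1. Summed over all rows, these came to 6970733 (wild type) and 5918162 (knockout) reads.

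A gene is its row with the highest mean. Lengths came from GENCODE vM21 (97.7% of 18766 rows). Intervals are exact Clopper-Pearson, conditional on the sum of both libraries, and Poisson for levels. As the reads carry no molecular identifiers, intervals cover counting error only. RefSeq tables (GRCm38.p6, not the authors' build) gave names, gene order and promoters. The genes and lists were chosen with earlier results of these data known. Named genes were the 8 genes, up to 4 called members per direction and list, and preset lineage and pathway genes. The functions were tested on simulated data. Computations used SciPy 1.17.1, pandas 2.3.3 and NumPy 2.4.6 under Python 3.11.15, and plots Matplotlib 3.10.9.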

Additional observations from a re-analysis of the deposited data

How the results depend on the processing

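No paired analysis was possible because each genotype had 1 library, and for the same reason no library could be left out. With the pseudocount (2 settings), the scaling (4 settings) or the added read changed, the log2 ratios of Retnlb and Sytl2 ranged from 2.63 to 3.44 and from 1.63 to 1.84. The choice of filter and the summing of rows cannot alter these ratios. With a mean of at least 100, Retnlb was filtered out and 1 of 7 genes was called higher. An exact binomial test with Benjamini-Hochberg adjustment on the recovered reads, a comparison of libraries only, called 7 of the 8 higher and none lower (all but Zg16), beside 2486 higher (22.9%) and 4062 lower (37.3%) of 10879 genes. For the 8 genes the median, 0.29 on the log2 scale, became 0.47 with scaling to library totals, 0.46 with scaling to the median ratio of genes averaging 100 or more, 0.55 with the assumed ceiling of 2 reads per base (Sytl2, with no length, uncorrected) and 0.79 as a mean. Those 2 scalings moved the median of all genes from -0.11 to 0.07 and 0.05, and the share above 0 from 40.2% to 56.4% and 55.2%, and under all 4 other scalings Zg16 lay above 0 (up to 0.13). With the assumed ceiling Spink4 would also be called higher, at 1.97. That call depends on the ceiling chosen, as its 1.98 reads per base in the knockout lie just under 2. Over all genes, 1217 were called higher and 390 lower, of which 75.7% higher. These counts were 1837 and 1430 at 1.5-fold, 770 and 107 at 3-fold, 477 and 247 (65.9% higher) with a mean of at least 100, and 2825 and 726 with no filter. Scaling to library totals gave 1488 and 243 (86.0% higher), and the median-ratio scaling 1465 and 252 (85.3%). A gene with few reads, such as Retnlb in the wild type, is limited by depth.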
